A study of Homo sapiens with 7 samples.

Results

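The keratin genes are the protein-coding genes on chromosomes 12 and 17 of GENCODE 44 (hg38) whose symbol is KRT followed by a number, with 1 letter allowed after it. The rule uses names and positions only, and it found 55 of 20033 protein-coding genes, 27 on chromosome 12 and 28 on chromosome 17. Their start sites were read against 5 sets of broad chromatin domains from HCT116, a human colorectal carcinoma cell line. The cells carried a doxycycline-inducible shRNA against UHRF1 and were kept without doxycycline for 14 days, so every set describes the baseline state. Clone 3 and Clone 6 are clonal lines of these cells, and each stands for 1 clone only. ChIP-seq was done with 2 samples each for H3K9me3 in Clone 3, H3K27me3 in Clone 3 and H3K27me3 in Clone 6, beside 1 input sample of Clone 3. Each of the 3 clone sets is the merged result of 2 samples, and 2 further sets hold what the clones share for each mark. The sets give no value assigned to a sample, so no spread between replicates can be attached to any count below, and genes of 1 cluster share domains and are no replicates of each other. The comparisons are therefore given as counts beside the share of all protein-coding genes, with no test.

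Keratins build the intermediate filaments of epithelial cells. A filament is made of pairs of 1 acidic type I keratin and 1 basic type II keratin, and the type I genes lie side by side on chromosome 17 and the type II genes on chromosome 12, where the type I gene KRT18 sits at the end of the row. Each kind of epithelium uses its own pairs: simple epithelia such as the gut lining use KRT8 with KRT18, KRT19 and KRT20, the basal layer of the skin uses KRT5 with KRT14, the upper layers use KRT1 with KRT10, and hair follicles use sets of their own. H3K27me3 is the histone mark of Polycomb repression and H3K9me3 that of constitutive heterochromatin, and both form broad domains over silent genes.

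In these cells, the keratins in a domain lay in a single H3K27me3 domain inside the type II cluster, nearer to its KRT18 end. It held the start sites of 4 of 55 keratins in Clone 3, where 6.44% of all protein-coding genes started in an H3K27me3 domain, and of 12 of 55 in Clone 6, where 7.97% did. The Clone 3 count was thus near the background. The 5 simple epithelial keratins KRT7, KRT8, KRT18, KRT19 and KRT20 lay outside the domains of both marks in all 5 sets, which at these shares is near the background for 5 genes. None of the 28 keratins of chromosome 17 lay in a domain of any set. None of the 55 keratins lay in an H3K9me3 domain, where 3.35% of all genes started in Clone 3. On chromosomes 12 and 17 that Clone 3 share was 1.45% and 0.590%, so the H3K9me3 count was near the background.

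The bases upstream of the start are shown for 7 keratins along the domain of the type II cluster, from below its lower edge to the part that Clone 6 alone had on the upper side, and for 2 simple epithelial keratins. Each is the 250 bases before the RefSeq start site, 5′ to 3′ on the minus strand of GRCh38, the strand of each of these 9 genes. Capitals mark each CG and each TATAAA, the core of the TATA box. The 2 simple epithelial keratins are the only ones of their class in the RefSeq table. KRT18, KRT7 and KRT19, which are not shown, had more CpGs at their canonical starts, as given below.
KRT75, companion layer of the hair follicle, below the domain in both clones (chr12:52434372-52434621): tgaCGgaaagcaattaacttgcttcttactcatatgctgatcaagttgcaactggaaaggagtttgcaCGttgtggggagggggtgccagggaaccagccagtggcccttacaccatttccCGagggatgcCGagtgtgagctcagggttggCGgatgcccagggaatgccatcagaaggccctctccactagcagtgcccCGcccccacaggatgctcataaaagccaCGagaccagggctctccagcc
KRT71, inner root sheath, first inside in Clone 6 (chr12:52553146-52553395): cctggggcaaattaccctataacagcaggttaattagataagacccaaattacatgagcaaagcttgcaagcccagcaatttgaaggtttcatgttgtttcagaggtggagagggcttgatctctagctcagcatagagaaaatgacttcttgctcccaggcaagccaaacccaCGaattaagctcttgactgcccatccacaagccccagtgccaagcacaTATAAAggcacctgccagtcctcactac
KRT73, inner root sheath, inside in Clone 6 and last outside in Clone 3 (chr12:52618560-52618809): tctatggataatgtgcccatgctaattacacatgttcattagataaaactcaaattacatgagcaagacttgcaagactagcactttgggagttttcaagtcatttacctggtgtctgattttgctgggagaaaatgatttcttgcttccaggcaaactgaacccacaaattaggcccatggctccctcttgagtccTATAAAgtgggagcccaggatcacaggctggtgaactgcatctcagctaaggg
KRT2, upper epidermis, first inside in Clone 3 (chr12:52652212-52652461): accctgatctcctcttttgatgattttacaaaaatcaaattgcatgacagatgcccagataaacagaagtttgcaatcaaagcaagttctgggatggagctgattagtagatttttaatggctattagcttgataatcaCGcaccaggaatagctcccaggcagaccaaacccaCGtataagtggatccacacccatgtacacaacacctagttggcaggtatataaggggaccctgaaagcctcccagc
KRT76, oral epithelium, last inside in Clone 3 (chr12:52777346-52777595): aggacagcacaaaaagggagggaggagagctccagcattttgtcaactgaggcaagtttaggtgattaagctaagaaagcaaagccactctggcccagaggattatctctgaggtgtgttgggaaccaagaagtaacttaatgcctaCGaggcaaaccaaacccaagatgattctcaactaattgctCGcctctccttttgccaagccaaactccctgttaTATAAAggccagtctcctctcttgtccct
KRT3, cornea, first outside in Clone 3 and inside in Clone 6 (chr12:52796118-52796367): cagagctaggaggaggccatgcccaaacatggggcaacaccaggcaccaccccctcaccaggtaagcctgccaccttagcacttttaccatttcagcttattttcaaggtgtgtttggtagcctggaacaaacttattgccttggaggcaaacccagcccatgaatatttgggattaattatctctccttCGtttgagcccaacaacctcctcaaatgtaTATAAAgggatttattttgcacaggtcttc
KRT79, inside in Clone 6 only (chr12:52834312-52834561): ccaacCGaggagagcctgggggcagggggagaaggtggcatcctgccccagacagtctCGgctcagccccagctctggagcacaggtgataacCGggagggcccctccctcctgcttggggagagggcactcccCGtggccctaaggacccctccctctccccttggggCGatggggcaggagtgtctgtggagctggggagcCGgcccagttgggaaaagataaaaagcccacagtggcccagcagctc
KRT8, simple epithelia, outside in both clones; the start of a further transcript, between the canonical start and the gene start (chr12:52926470-52926719): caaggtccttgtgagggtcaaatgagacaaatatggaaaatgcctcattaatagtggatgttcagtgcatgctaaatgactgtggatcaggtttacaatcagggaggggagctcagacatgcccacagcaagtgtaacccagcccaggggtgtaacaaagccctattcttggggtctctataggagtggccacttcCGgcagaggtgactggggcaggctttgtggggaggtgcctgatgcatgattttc
KRT20, intestinal epithelium, chromosome 17, no domain (chr17:40885243-40885492): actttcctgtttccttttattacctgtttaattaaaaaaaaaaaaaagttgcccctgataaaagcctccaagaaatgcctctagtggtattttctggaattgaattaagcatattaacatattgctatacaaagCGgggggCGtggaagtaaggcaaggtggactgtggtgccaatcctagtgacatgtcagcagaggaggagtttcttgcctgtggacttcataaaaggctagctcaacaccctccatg

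TATAAA was searched on both strands of the 300-base RefSeq windows, from 250 bases before to 50 after the start; its reverse complement TTTATA can overlap it. It began 28 bases before the start of KRT71, 53 before that of KRT73, 29 before that of KRT76 and 30 before that of KRT3. The windows of KRT75, KRT2, KRT79, KRT8 and KRT20 held it on neither strand, which says only that these letters are not there. Of 15345 protein-coding genes with a window in the RefSeq table, 9.90% held it. Of the 55 keratins 34 have a window there, and 21 of these 34 (61.8%) held it. With under 80% of the keratins in the table, a comparison for the family is void, and the count describes these 34 only. Inside and outside the domain, windows with and without these letters were found. On chromosome 12, the windows outside the domain that held them were those of KRT82 and KRT84, in each only as TTTATA.

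Counted over all keratins, 4 of 55 (7.27%) started in a Clone 3 H3K27me3 domain, against 6.44% of all protein-coding genes. In Clone 6 the count was 12 of 55 (21.8%), against 7.97% of all genes. The clone-shared H3K27me3 set held 4 of 55, against 5.32%. For H3K9me3 the count was 0 of 55 in Clone 3, against 3.35% of all genes, and 0 of 55 in the clone-shared set, against 3.24%. The Clone 3 H3K9me3 shares of chromosomes 12 and 17 were lower, 1.45% and 0.590% of their genes, at which the keratins would hold less than 1, so their 0 was near the background. On chromosome 12 alone, 4 of 27 keratins (14.8%) lay in Clone 3 H3K27me3 domains and 12 of 27 (44.4%) in those of Clone 6. The shares of all 1038 protein-coding genes of that chromosome were 8.19% and 7.61%. On chromosome 17 the keratins had 0 of 28 in both clones, against 4.47% of 1186 genes in Clone 3 and 6.32% in Clone 6. For 28 genes of 1 cluster this 0 was near the background. Because 1 domain carries every keratin counted, these shares describe 1 place in the genome and not 12 separate ones.

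**Figure D1:**
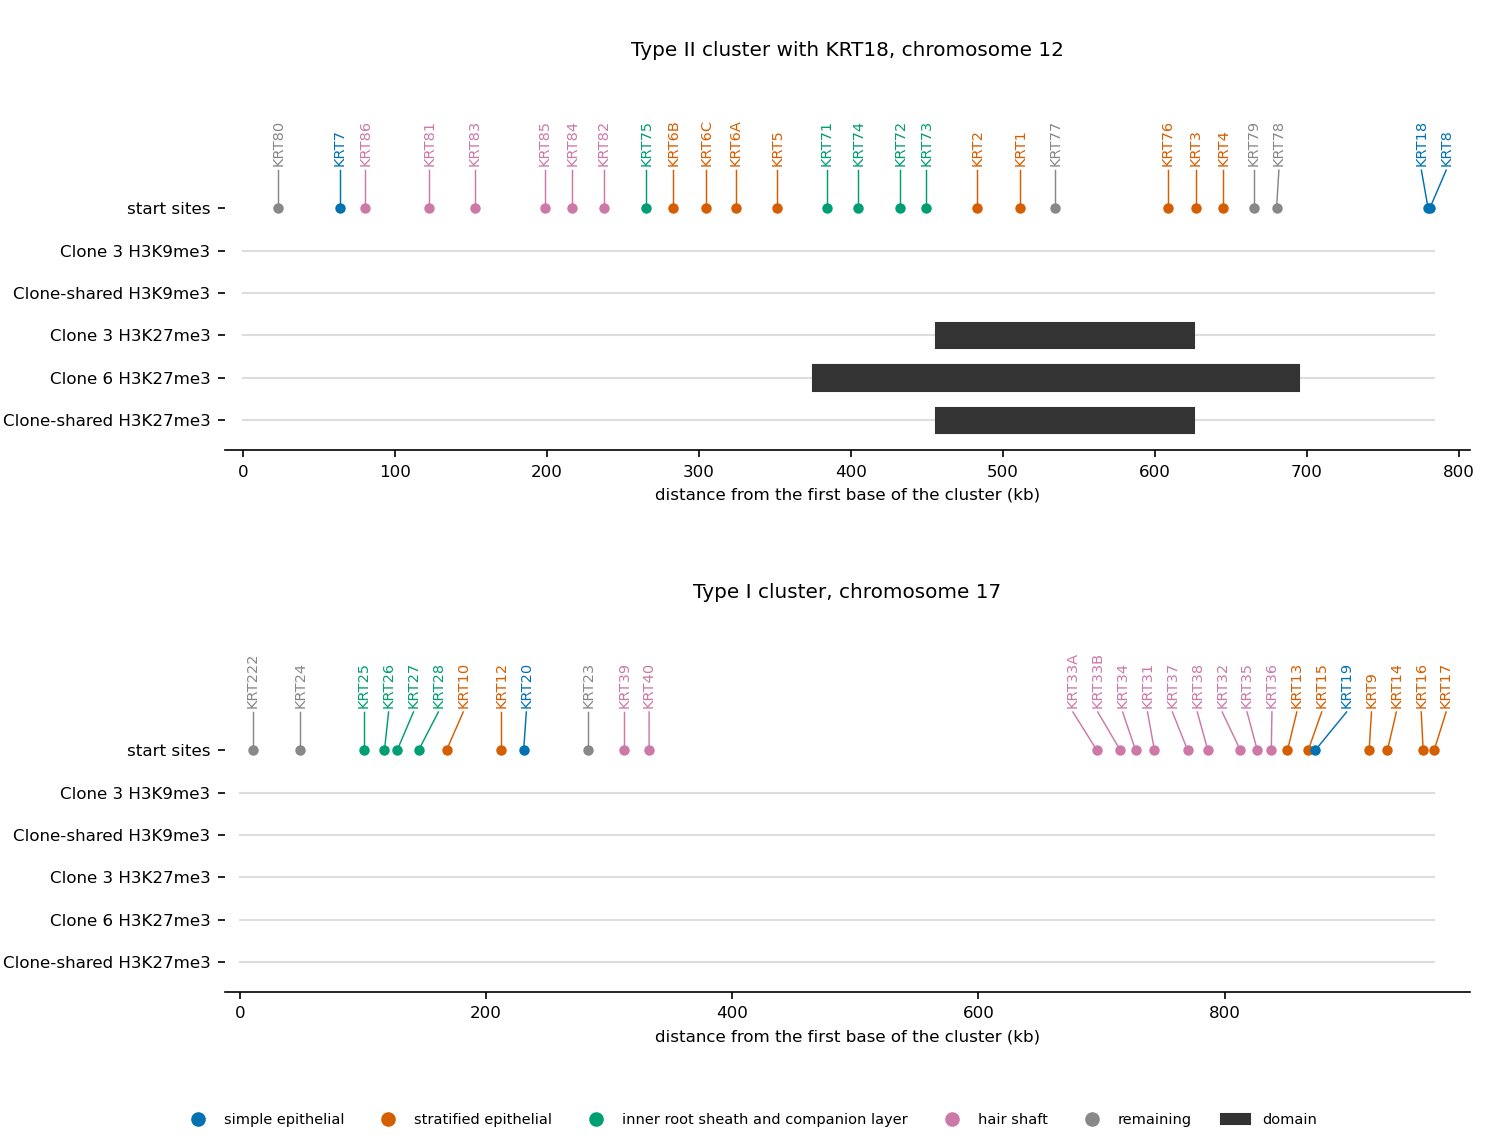
Start sites of the 55 keratins along both clusters, in kb from the first base of the cluster, coloured by class, above 1 row for each of the 5 domain sets with domains as dark bars. The only bars lie in the 3 H3K27me3 rows of chromosome 12, over KRT2 to KRT76 in Clone 3 and the clone-shared set and over KRT71 to KRT78 in Clone 6.

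The type II cluster runs from KRT80 to KRT18 over 784 kb of chromosome 12 (chr12:52168996-52952906). The Clone 3 H3K27me3 domain covered 170 kb of it (chr12:52625001-52795000), or 21.7%, and the Clone 6 domain 320 kb (chr12:52544001-52864000), or 40.8%. Over the whole gap-free chromosome the shares were 13.6% and 13.2%. The Clone 3 domain lay wholly inside the Clone 6 domain, which reached 81.0 kb further on the KRT71 side and 69.0 kb further on the KRT78 side. Over the whole genome, too, Clone 6 had fewer and longer H3K27me3 domains, 1959 with a median of 78 kb. Clone 3 had 2600 with a median of 58 kb. Their total lengths were 370 Mb in Clone 6 and 386 Mb in Clone 3. The clone-shared domain had the edges of the Clone 3 domain. All 4 protein-coding start sites inside the Clone 3 domain and all 12 inside the Clone 6 domain were keratins. Beside them the Clone 6 domain held the starts of 10 annotated pseudogenes and 2 long noncoding RNA genes, and the Clone 3 domain those of 9 and 1. By the number of protein-coding starts, 9 of the 1959 Clone 6 domains held at least 12, while 1129 held none. In Clone 3, 58 of 2600 domains held at least 4 and 1882 held none. By length the domain ranked 608 of 2600 in Clone 3 and 360 of 1959 in Clone 6.

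Each domain of a clone set carries 2 scores of the authors' domain caller, whose scale and replicate are not given in the sources used here. The keratin domain had 96.4 and 26.1 in Clone 3, where the medians of the set were 40.2 and 44.8. In Clone 6 it had 141 and 147, with medians of 56.9 and 32.3. In Clone 6 both scores were thus above the median of their set, and in Clone 3 the first was above and the second below it. The scores differ between sets in ways that cannot be scaled here, so the clones are not compared by them.

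The 4 keratins in the domain of both clones were KRT2, KRT1, KRT77 and KRT76, with 5.32% of all genes in an H3K27me3 domain of both clones. KRT1 and KRT2 are the type II keratins of the upper layers of the epidermis, KRT77 is known from sweat gland ducts and KRT76 from the lining of the palate. Their gene bodies lay in the domain over their whole length in both clones. KRT2 started 27.2 kb inside the lower edge of the Clone 3 domain (start site chr12:52652211). KRT1 started at chr12:52680407 and KRT77 at chr12:52703524. The widest gap between neighbouring keratin starts of the Clone 6 domain, 73.8 kb, followed KRT77, and annotated pseudogenes lie in it. KRT76 started at chr12:52777345, 17.7 kb inside the upper edge of the Clone 3 domain.

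In the domain of Clone 6 alone lay 8 keratins, while 2.65% of all genes had H3K27me3 in Clone 6 alone. In that of Clone 3 alone lay 0 keratins, while 1.12% of all genes did. On the lower side these were the inner root sheath keratins KRT71, KRT74, KRT72 and KRT73, which form the layer that moulds the growing hair. Their starts were 71.9, 51.2, 23.5 and 6.44 kb from the Clone 3 domain. KRT71 was the first gene inside the Clone 6 domain, with its start site (chr12:52553145) 9.14 kb from the edge and 99.0% of its body in the domain. On the upper side these were KRT3, the corneal partner of KRT12, KRT4, the keratin of the oral and oesophageal lining, and KRT79 and KRT78. KRT3 started 1.12 kb above the upper edge of the Clone 3 domain (start site chr12:52796117), and 82.6% of its body lay in that domain, since the gene runs downwards from its start. With any overlap of the gene body counted, the Clone 3 count was thus 5 in place of 4. KRT4 started 19.1 kb, KRT79 39.3 kb and KRT78 54.1 kb above the Clone 3 domain, and no base of their bodies lay in it. Domain edges are whole kb and replicates were merged before deposit, so a difference of a few kb at KRT3 or KRT73 has no error to be read against.

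**Figure D2:**
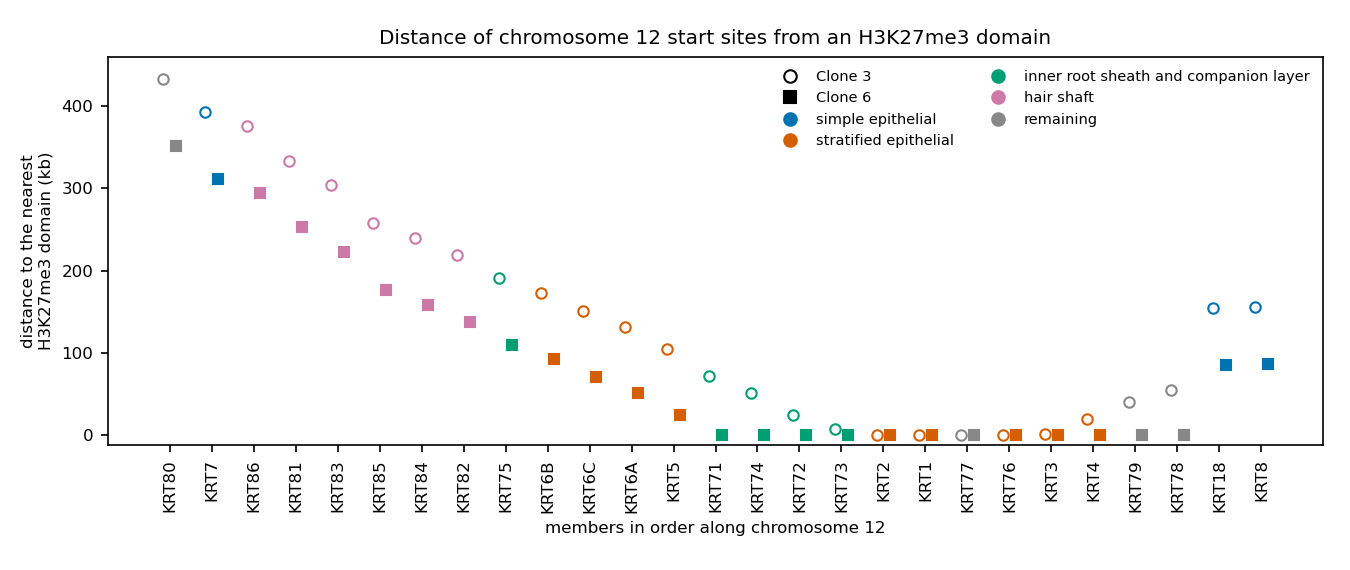
Distance in kb from the start site of each chromosome 12 keratin, in order along the chromosome, to the nearest H3K27me3 domain of Clone 3 (open circles) and Clone 6 (filled squares), coloured by class. Points at 0 lie in a domain: 4 genes in Clone 3 and 12 in Clone 6, with KRT3 at 1.12 kb and KRT73 at 6.44 kb in Clone 3.

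Below the domain lay 13 keratins outside it in both clones. KRT5, the type II keratin of the basal epidermis, was the nearest, with its start (chr12:52520530) 23.5 kb from the Clone 6 domain and 104 kb from that of Clone 3. The stress and wound keratins KRT6A, KRT6C and KRT6B followed at 50.7, 70.2 and 91.9 kb from the Clone 6 domain. KRT75, of the companion layer of the hair follicle, was 110 kb away, and it was the one keratin of its class on chromosome 12 that lay outside the Clone 6 domain. The 6 type II hair shaft keratins KRT82, KRT84, KRT85, KRT83, KRT81 and KRT86 started between 138 and 295 kb from the Clone 6 domain. KRT7 and KRT80 closed the row at 311 and 352 kb.

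Above the domain lay KRT8 and KRT18, the pair of simple epithelia. KRT18 (gene chr12:52948871-52952906, plus strand) started 84.9 kb above the Clone 6 domain and 154 kb above that of Clone 3. KRT8 (gene chr12:52897187-52949954, minus strand) has its annotated gene start next to that of KRT18, 86.0 kb from the Clone 6 domain, but its canonical transcript starts lower, at chr12:52905076, 41.1 kb from it. Of the 18 annotated KRT8 transcripts 0 started in a domain, the nearest 37.9 kb from the Clone 6 domain. KRT7 (gene chr12:52232520-52252186, plus strand), the simple type II keratin of ducts and glands, started near the other end of the cluster, 392 kb from the Clone 3 domain, and 0 of its 13 transcripts started in a domain. KRT7, next to KRT80 at the lower end, and KRT8 at the upper end thus lay on opposite sides of the domain. On chromosome 17, KRT20 (gene chr17:40875889-40885242, minus strand), a keratin of the intestinal lining, was 987 kb from the nearest Clone 6 H3K27me3 domain, and KRT19 (gene chr17:41523617-41528308, minus strand) 1630 kb. From Clone 3 H3K27me3 domains they were 5324 and 5967 kb away.

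By class, 0 of 5 simple epithelial keratins lay in an H3K27me3 domain of either clone, where 6.44% of all genes did in Clone 3 and 7.97% in Clone 6, shares at which 5 genes would hold less than 1. Of the 17 stratified epithelial keratins, those of epidermis, mucosa and cornea, 3 lay in a Clone 3 domain (KRT1, KRT2 and KRT76) and 5 (29.4%) in a Clone 6 domain (KRT3 and KRT4 besides). Of the 9 keratins of the inner root sheath and companion layer, 0 lay in a Clone 3 domain and 4 (44.4%) in a Clone 6 domain. Both Clone 6 shares were above that of all genes, as was the 17.6% of stratified keratins in Clone 3. Of the 17 hair shaft keratins, 0 lay in a domain of either clone. Of the 7 remaining keratins, 1 (14.3%) lay in a Clone 3 domain and 3 (42.9%) in a Clone 6 domain. These shares too were above those of all genes. Most epidermal and hair keratins still lay outside the Clone 6 domains, 12 of 17 stratified and 22 of 26 hair follicle keratins. With 5 simple keratins, 2 of them on a chromosome where no keratin lay in a domain, their count of 0 and the class counts beside it cannot be told apart from the position of the genes along 1 cluster.

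**Figure D3:**
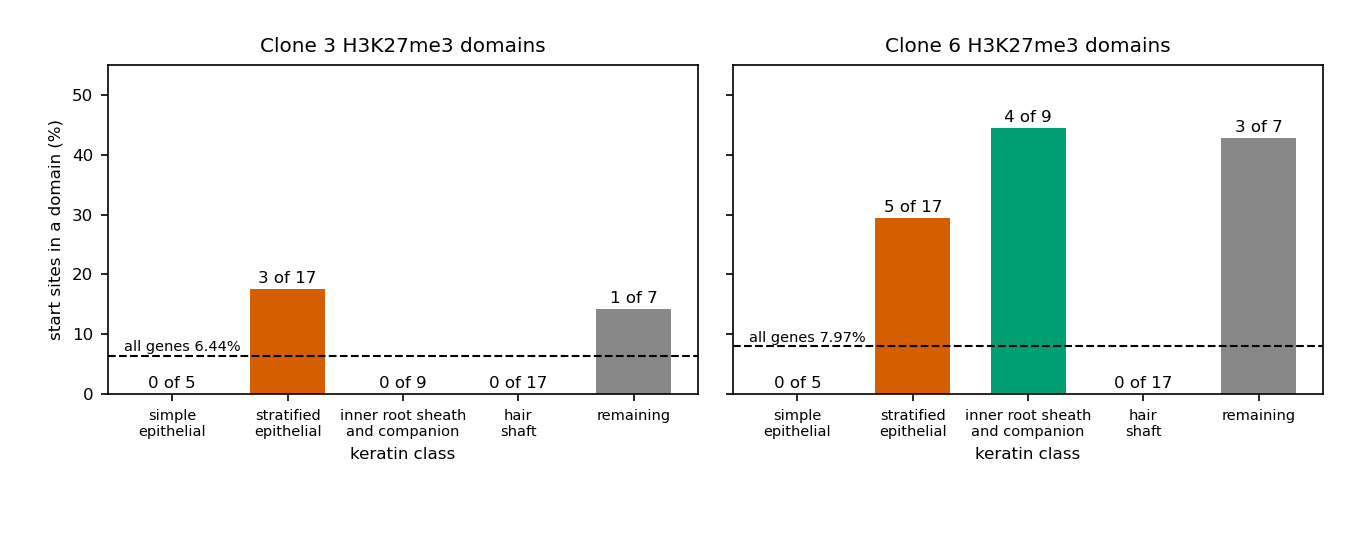
Share of start sites in an H3K27me3 domain (percent) for the 5 keratin classes in Clone 3 (left) and Clone 6 (right), with the counts above the bars and the share of all 20033 protein-coding genes as a dashed line. The simple epithelial and hair shaft bars are at 0 in both clones, and the inner root sheath and companion layer bar is at 0 in Clone 3 and at 4 of 9 in Clone 6.

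Members of 1 class on chromosomes 12 and 17 differed in position relative to domains. The inner root sheath uses KRT71 to KRT74 as type II and KRT25 to KRT28 as type I keratins. All 4 of the former lay in the Clone 6 domain, and the 4 of the latter lay between 857 and 902 kb from the nearest Clone 6 H3K27me3 domain. Of 6 textbook pairs of a type II and a type I keratin, 3 had their type II member in the Clone 6 domain, namely KRT1 with KRT10, KRT3 with KRT12 and KRT4 with KRT13. In the Clone 3 domain it was 1 of 6, KRT1. Of all genes of chromosome 12, 7.61% lay in a Clone 6 and 8.19% in a Clone 3 H3K27me3 domain, and nothing is read from these counts of a few neighbouring genes. The type I member lay outside all domains in 6 of 6 pairs, and the pairs KRT5 with KRT14, KRT6A with KRT16 and KRT8 with KRT18 lay outside with both members. These pairs were chosen after the positions had been seen and serve only as a description.

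The type I cluster runs from KRT222 to KRT17 over 970 kb of chromosome 17 (chr17:40654665-41624842), and 0 kb of it lay in a domain of any set. Over the whole gap-free chromosome, 10.2% lay in Clone 3 and 13.7% in Clone 6 H3K27me3 domains. From the lower end it holds KRT222 and KRT24, then KRT25 to KRT28 of the inner root sheath, then KRT10 of the upper epidermis, KRT12 of the cornea, KRT20 and KRT23. The hair shaft keratins KRT39 and KRT40 follow, and, beyond the keratin-associated protein genes, KRT33A, KRT33B, KRT34, KRT31, KRT37, KRT38, KRT32, KRT35 and KRT36. KRT13 of the mucosa, KRT15, KRT19, KRT9 of palms and soles, KRT14, KRT16 and KRT17 close the row. KRT19 thus stood between keratins of stratified epithelia, and KRT20 next to KRT12, all of them outside domains. KRT222, at its lower end, was the keratin nearest to a domain there, 767 kb from a Clone 6 H3K27me3 domain (chr17:39836001-39898000). KRT17, at the other end, was 1727 kb from it. From KRT222 to the closest H3K27me3 domain of Clone 3 it was 5104 kb. The cluster also holds 34 keratin-associated protein genes, which encode the matrix proteins around hair keratin filaments, between KRT40 and KRT33A. None of these 34 lay in a domain of any set, whereas of the 60 keratin-associated protein genes elsewhere in the genome 31 (51.7%) lay in a Clone 3 H3K9me3 domain beside 3.35% of all genes. For H3K27me3 the clones differed in these 60 genes, with 1 (1.67%) in a Clone 3 domain beside 6.44% of all genes, and 18 (30.0%) in a Clone 6 domain beside 7.97%. SMIM41 and EIF4B, the protein-coding genes on either side of the type II cluster, and EIF1 above the type I cluster lay in no domain of any set. At the lower end of the type I cluster, ENSG00000264058, which starts within KRT222 and runs out of the cluster, lay in none either.

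H3K9me3 domains were far from both clusters. The keratins of chromosome 12 started between 14132 and 14890 kb from the nearest Clone 3 H3K9me3 domain (chr12:37732001-38060000), and those of chromosome 17 between 6482 and 7442 kb (chr17:33288001-34183000). The distances to the clone-shared H3K9me3 set were the same. The H3K27me3 domain of the type II cluster thus had no H3K9me3 domain within the cluster or beside it. H3K9me3 in Clone 6 enters only through the clone-shared set, and its own domains were not analysed here.

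The sequence of the type II cluster differed between the parts that the domain edges cut out. The part in the domain of both clones had 47.5% GC and 10.4 CpGs per kb. The parts in the Clone 6 domain alone had 48.9% GC and 11.1 CpGs per kb on the KRT71 side and 50.3% and 12.2 on the KRT78 side. Outside the domain, the 375 kb from KRT80 to KRT5 had 49.2% GC and 12.4 CpGs per kb, and the 88.9 kb around KRT8 and KRT18 had 50.7% and 16.1. Averaged over these parts, the CpG density was thus lowest in the part that both clones shared and highest at KRT8 and KRT18. In bins of 10 kb this order did not hold. The lowest and the highest bin of the type II cluster, with 4.9 and 24.1 CpGs per kb, both lay in the 375 kb from KRT80 to KRT5. The type I cluster, which has no domain, had 42.8% GC and 9.73 CpGs per kb, below each of these parts. These are single values of a reference sequence, and their part in the position of the domain was not tested.

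**Figure D4:**
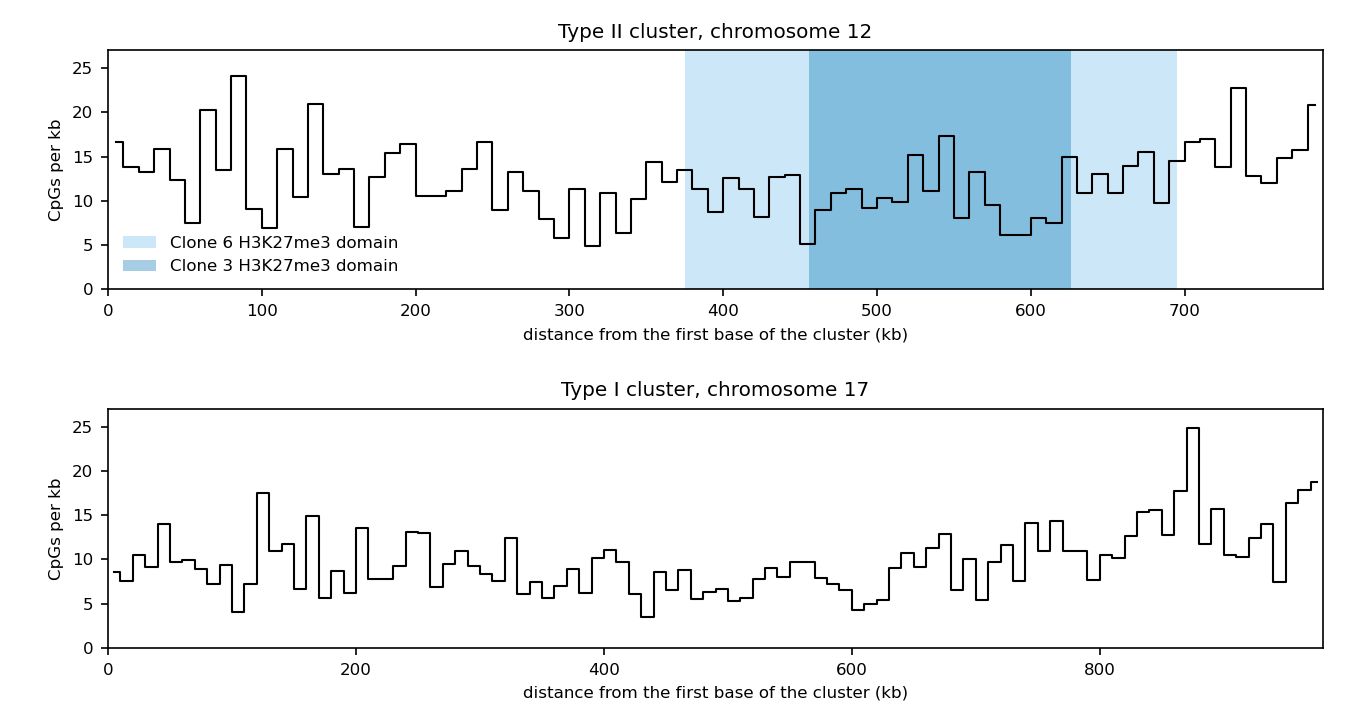
CpGs per kb of hg38 in bins of 10 kb along the type II cluster (top) and the type I cluster (bottom), in kb from the first base of the cluster, with the Clone 6 H3K27me3 domain in light and the Clone 3 domain in dark blue. The stretch shared by both clones averages 10.4 CpGs per kb and the end with KRT8 and KRT18 16.1.

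At the start sites, CpGs were counted in windows of fixed length. In the 300 bases from 250 before to 50 after the gene start, the median was 3 CpGs over the 55 keratins, with a range of 0 to 18, while the 15345 windows of protein-coding genes in the RefSeq table had a median of 22. The RefSeq windows lie at RefSeq starts, which were the canonical start for 33 of the 34 keratins in that table, and these 34 had a median of 2 there. As the starts differ in kind and the table lacks many keratins, these medians stand side by side only as a description. By class the median was 7 for simple epithelial, 3 for stratified epithelial, 2 for inner root sheath and companion layer, 3 for hair shaft and 5 for the remaining keratins. The value of the simple keratins depended on which start was taken. At the start of the canonical transcript their windows held 36 CpGs for KRT18, 29 for KRT7, 18 for KRT19, 7 for KRT8 and 2 for KRT20, a median of 18, while the other classes had medians between 2 and 5. At the gene start, the outermost of a gene's annotated transcript starts, the same genes had 14, 7, 18, 2 and 2 CpGs. Only at the canonical start, KRT18 and KRT7 were above the median of the RefSeq windows, and KRT19, KRT8 and KRT20 were below it at both starts. On chromosome 12, the 4 keratins with H3K27me3 in both clones had between 2 and 3 CpGs, the 8 of Clone 6 alone a median of 3.5 and the 15 in neither a median of 5, at the gene start. KRT72 was the member inside the Clone 6 domain with the highest count, 17 CpGs at its canonical start.

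**Figure D5:**
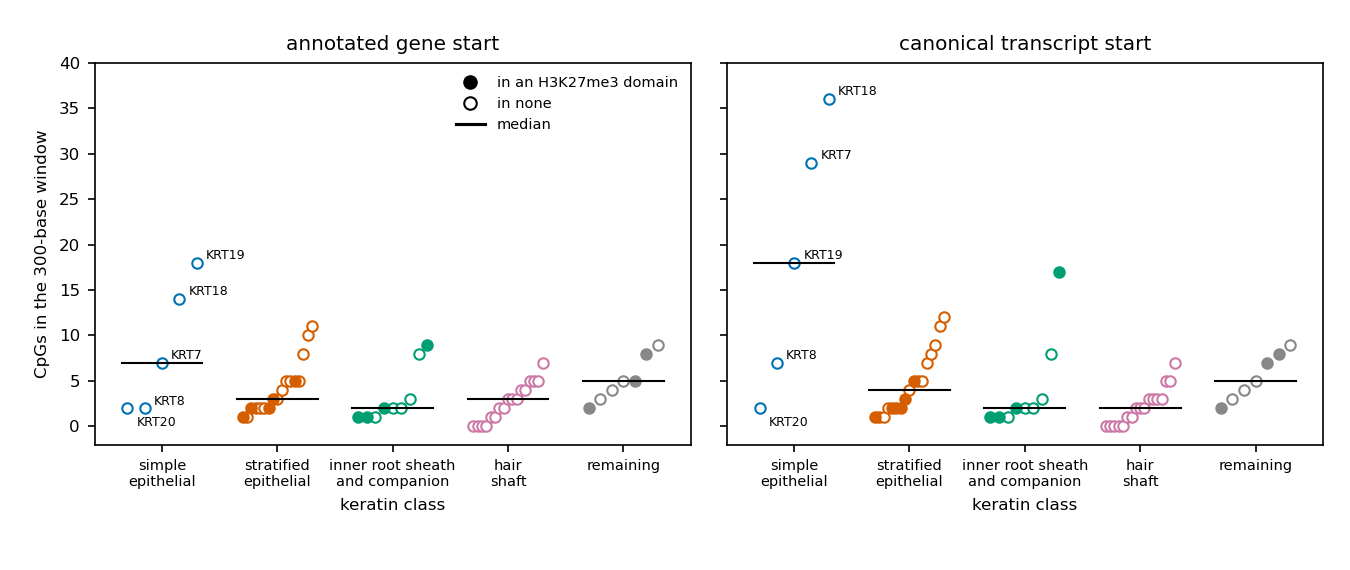
CpGs in the 300-base window at the annotated gene start (left) and at the canonical transcript start (right) of the 55 keratins by class, with filled points for genes in an H3K27me3 domain, open points for genes in none and lines for the class medians. The simple epithelial median is 7 on the left and 18 on the right.

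Genes of other intermediate filaments and genes whose products anchor keratin filaments were read out from lists. Of 15 other intermediate filament genes, 3 lay in a Clone 3 H3K27me3 domain and 4 in a Clone 6 domain, beside 6.44% and 7.97% of all genes, and 0 in an H3K9me3 domain. These were BFSP2, a filament protein of the eye lens (domain chr3:132809001-133416000 in Clone 3), and NEFL and NEFM, neurofilament proteins of neurons, which shared 1 domain in each clone. INA, a further neuronal filament gene, lay in a domain of Clone 6 only (chr10:103262001-103300000). VIM, the filament gene of mesenchymal cells, and the lamin genes LMNA, LMNB1 and LMNB2, whose products line the nucleus in nearly all cells, lay in none. The rest of the list, BFSP1, NEFH, PRPH, GFAP, DES, NES and SYNM, lay in none either. Related genes such as BFSP2 and BFSP1, or NEFL and NEFH, thus lay on both sides. Of 18 desmosome and hemidesmosome genes, whose products anchor keratin filaments at the cell border, 0 lay in a domain of any set, including the skin cadherins DSG1 and DSG3. For 18 genes this is near the background, with 3.35% of all genes in a Clone 3 H3K9me3 domain and the H3K27me3 shares above. PPL, the gene of periplakin, was the closest of them, 7.26 kb from a Clone 6 H3K27me3 domain.

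The labelled cell type, colorectal carcinoma epithelium, was checked against its markers as far as domains allow. All 9 of 9 colorectal epithelium markers, among them EPCAM, CDH1, CDX2, VIL1 and KRT20, lay outside all domains. So did 4 of 4 markers of stratified epithelium (TP63, KRT5, KRT14 and DSG3) and 6 of 6 fibroblast markers. With between 3.24% and 7.97% of all genes in a domain of each set, lists of 9, 4 and 6 genes would hold less than 1 gene per set, so these counts are near the background and do not check the cell type. KRT20, KRT5 and KRT14 are themselves keratins counted above, and DSG3 and VIM stand in 2 of these lists each. The stratified list was fixed with earlier results known and holds none of KRT1, KRT2, KRT3, KRT4 and KRT76, stratified keratins that lay in the Clone 6 domain. The sets hold no expression values, so this says only where the marker genes lie. The domain sets give no read numbers, so a keratin outside the domains is one where no broad domain was called in both samples, and narrower or weaker marks there cannot be seen.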

How the data were processed

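ChIP-seq for H3K9me3 and H3K27me3 was done in baseline shUHRF1 cells of HCT116. According to their methods and processing notes, the authors trimmed reads with Trim Galore 0.5.0, aligned them to hg38 with Bowtie2 2.3.5, removed duplicates, called broad domains with Enriched Domain Detector at default settings and kept coordinates found in both samples of a clone. How reads matching several paralogs were treated is not given in the sources used here. The deposited sets give domain edges in whole kb (positions in bp) and, for the clone sets, 2 values per domain, which are scores of the authors' caller. The methods set a minimum of read pairs per library, but the domain sets give no read numbers, so the depth behind a single domain is not known here.

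A gene was in a domain when its GENCODE 44 gene start lay in it. Distances, covered bases, GC and CpGs were computed from hg38 in Python 3.11.15 with numpy 2.4.6 and pandas 2.3.3, and the interval code was tested on simulated data. No test over samples was possible. The alternatives were the gene body, any transcript start, a tolerance of 10 kb, domains of at least 100 kb, the upper 50% of domains by their lower score, KRT23 and KRT80 as simple keratins, clusters widened by 100 kb and windows of 1000 bases on each side. The start of the canonical transcript was chosen as an alternative only after seeing the data. The members, classes and lists were chosen with earlier results of these data known. Every keratin is accounted for by class. Those with full values are the simple keratins, the members at domain edges and those that differ between clones.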

Additional observations from a re-analysis of the deposited data

How the results depend on the processing

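Of 298 recomputed values, 291 stayed within a factor of 1.5 of the reported ones. Many of these were 0 both as reported and as recomputed. The limit of 100 kb could not remove the keratin domains of 170 and 320 kb. The count of 291 is therefore no measure of stability. With a start within 10 kb of a domain counted as inside, the inner root sheath and companion layer keratins in a Clone 3 or clone-shared H3K27me3 domain rose from 0 to 1 (KRT73), and the desmosome genes in a Clone 6 domain from 0 to 1 (PPL). When domains shorter than 100 kb were left out, the median distance of chromosome 17 keratins from a Clone 6 H3K27me3 domain was 5808 kb in place of 1478 kb. The median CpGs per kb at the start of simple epithelial keratins was 44 with 1000 bases on each side and 60.0 at the canonical start, in place of 23.3. For the inner root sheath and companion layer keratins it was 12.5 with 1000 bases on each side, in place of 6.67. The keratins in the Clone 3 domain numbered 5 by gene body and 6 within 10 kb, in place of 4, and those of Clone 6 stayed at 12 under the alternatives run. No paired analysis was possible because the domains were merged over replicates and the 2 scores per domain are not assigned to samples, and for the same reason no replicate could be left out. The sets give no read numbers, which limits what a missing domain can show.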
